A study of Mus musculus with 2 samples.

Results

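The mitochondrial carrier family, SLC25, and the uncoupling proteins were examined in the hearts of 4-day-old mice. Members were the protein-coding genes whose symbol starts with Slc25a, together with Ucp1, Ucp2 and Ucp3, which belong to the same family by structure. The rule found 50 genes among 21901 protein-coding genes and 55536 mouse genes in the tables. Total RNA was sequenced in 2 libraries, 1 from each of 2 hearts of male B6CASTF1/J mice aged 4 days, the F1 hybrids of the C57BL/6J and CAST/EiJ strains. No treatment, transgene or deletion is given in the labels, and both libraries form 1 group. The animals have different numbers but the same donor record, so if both samples came from 1 source the spread between them would be technical. The design holds no contrast between conditions, and what follows describes the level of each member, how members compare with each other, and how far the hearts differed.

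Mitochondrial carriers are small membrane proteins built from a tandemly repeated module, and nearly all of them sit in the inner mitochondrial membrane. They exchange nucleotides, phosphate, organic acids, amino acids, cofactors and metal ions between the cytosol and the matrix. In heart muscle, which draws most of its ATP from oxidative phosphorylation, they bring in ADP, phosphate and fuel and pass ATP out. Uncoupling proteins are carriers of the same fold, of which Ucp1 lets protons return to the matrix and releases heat in brown fat.

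Over mouse genes, the libraries of replicates 1 and 2 held 31512596 and 35744013 expected counts. Expected counts are read counts shared among transcripts by a model, and TPM, or transcript abundance scaled to the library, is the same measure corrected for length. Levels below are the authors' TPM, and comparisons between genes use TPM alone. A further set of deposited tables gives TPM of the same libraries from a different program, called here the second quantification. The tissue label was checked against markers: all 10 cardiomyocyte genes reached 1 TPM in each heart, with sums of 36366 and 32843 TPM. All 8 fibroblast and all 8 endothelial genes and 8 of 9 macrophage genes passed the same level, 2 of 8 hepatocyte genes and 1 of 8 skeletal muscle genes did, and none of 8 male germ cell genes did. In whole tissue, fewer cells of a type and less RNA per cell cannot be told apart.

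Of the 50 members, 39 were expressed, which means 1 TPM or more in each heart, a share of 78%, beside a background of 54.1% over all protein-coding genes. In both hearts 20 members reached 10 TPM and 5 reached 100. The background share was not taken at these levels, so these counts describe the members only. The median member had 7.22 TPM, beside 2.24 over nuclear protein-coding genes. Among expressed genes alone the medians were closer, at 15.0 TPM for members and 12.2 for nuclear protein-coding genes. Together the members held 0.861% ± 0.0760 of the TPM of nuclear protein-coding genes (SD, n = 2), with 0.914% in replicate 1 and 0.807% in replicate 2.

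The family's transcripts were concentrated in 3 genes that serve the final step of ATP supply. Slc25a4, Slc25a3 and Slc25a5 together held 75.9% ± 1.25 of all member TPM (SD, n = 2). Slc25a4 alone held 41.2% ± 1.94, Slc25a3 23.7% ± 0.418 and Slc25a5 11.0% ± 0.274. They ranked 15, 33 and 132 among nuclear protein-coding genes by mean TPM. By role, adenine nucleotide exchange took 52.2% ± 1.66 of member TPM and phosphate uptake 23.7%, and next by mean were the di- and tricarboxylate carriers with 4.30% ± 0.235 and the uncoupling proteins with 4.23% ± 0.711 (SD, n = 2). The order of these roles was not fixed, since the uncoupling proteins took 4.74% against 4.47% in replicate 2 and a mean of 5.64% against 4.66% by the second quantification. After the 3 leading genes came Ucp2 with 3.73% ± 0.783 and Slc25a11 with 3.66% ± 0.152. In the order of the 39 expressed members, the ranges of neighbours over the 2 hearts did not overlap in 15 of 38 steps. Of the first 12 steps, from Slc25a4 down to Slc25a46, all were separated but the one between Ucp2 and Slc25a11. Below Slc25a46 most neighbours could not be ranked.

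**Figure D1:**
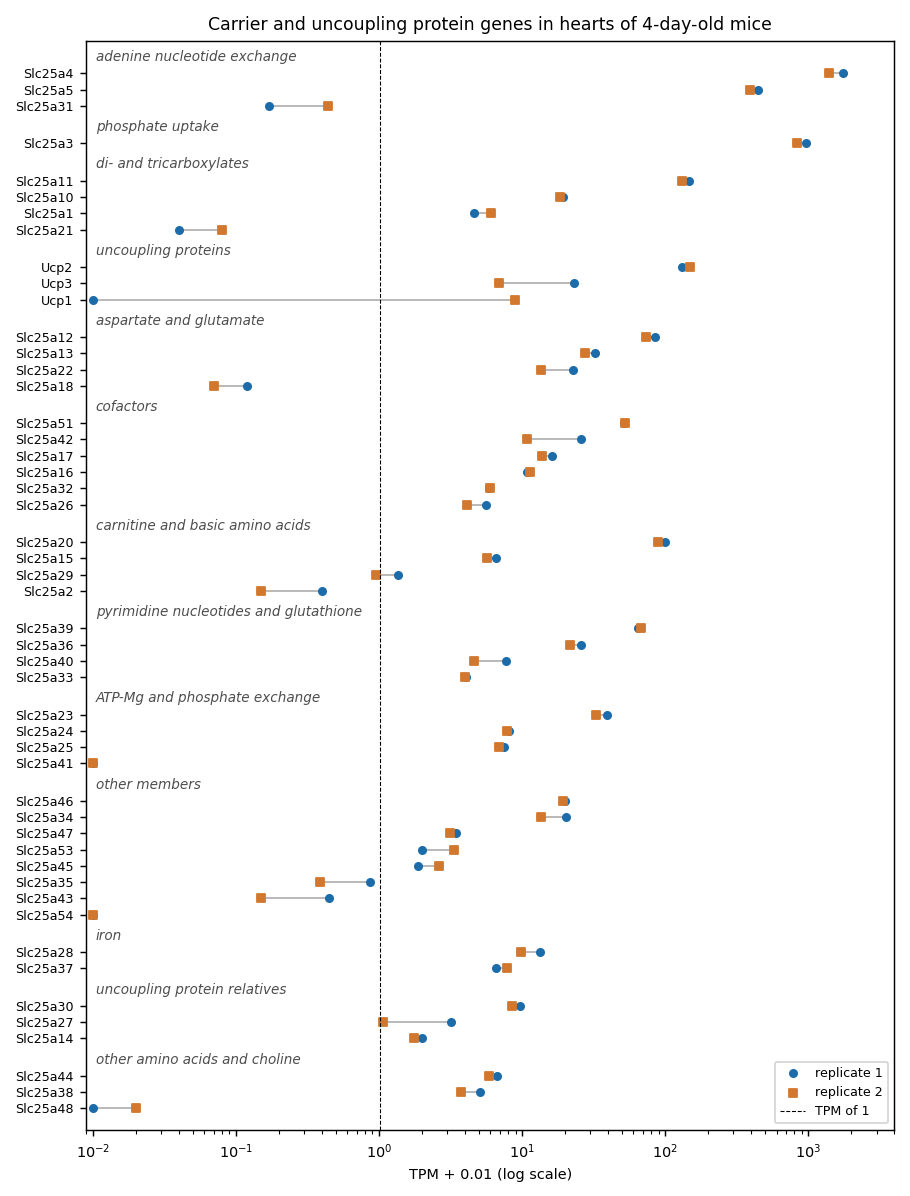
TPM of 49 of the 50 members in replicate 1 (circles) and replicate 2 (squares), on a log axis after adding 0.01, grouped by transported substrate; the dashed line marks a TPM of 1. Slc25a4, Slc25a3 and Slc25a5 lie to the right of all other members in both hearts, and Ucp1 has the widest gap, with 0 TPM in replicate 1 and 8.94 in replicate 2.

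Adenine nucleotide carriers exchange matrix ATP for cytosolic ADP. Slc25a4, the form typical of heart and skeletal muscle (chromosome 8, 46206797 to 46211284, minus strand), had 1759 and 1389 TPM in replicates 1 and 2. Slc25a5, the form of dividing and many other cells (chromosome X, 36795651 to 36798807, plus strand), had 446 and 390. Slc25a31, known for its role in male germ cells, had 0.16 and 0.43 TPM from 8 and 25 expected counts, beside 8 male germ cell markers that summed to 0.22 and 0.48 TPM. Both hearts thus kept the same order, with Slc25a4 at 78.9% ± 1.21 of the TPM of the 3 genes (SD, n = 2). Slc25a4 exceeded Slc25a5 by a log2 ratio of 1.91 ± 0.10 (SD, n = 2), which is 3.75-fold, and the second quantification gave 2.04. Each of Slc25a4, Slc25a3 and Slc25a5 had a TPM above the upper bound of its deposited interval in both libraries, as with 1759 TPM against an upper bound of 1726 for Slc25a4 in replicate 1, so these bounds are not used as errors here.

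Because the 3 genes are close copies, their coding sequences were compared. Over the whole coding sequence Slc25a4 and Slc25a5 were identical at 77.4% of 894 aligned bases, and the longest identical run was 20 bases. Slc25a4 and Slc25a31 were identical at 66.9% of 888 aligned bases. The stretches printed here encode the segment with the signature of ADP/ATP carriers, a run rich in arginine and methionine. They are shown because the 3 genes encode the same signature, though with different bases. Capitals mark the 18 bases that encode the signature, and bases are counted from the start codon in GENCODE M21 transcripts (coding bases 673 to 750 in Slc25a4 and Slc25a5, and 712 to 789 in Slc25a31).
Slc25a4 (chromosome 8): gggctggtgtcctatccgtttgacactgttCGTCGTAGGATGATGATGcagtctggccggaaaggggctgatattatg
Slc25a5 (chromosome X): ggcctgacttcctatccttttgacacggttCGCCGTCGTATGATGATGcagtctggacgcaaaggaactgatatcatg
Slc25a31 (chromosome 3): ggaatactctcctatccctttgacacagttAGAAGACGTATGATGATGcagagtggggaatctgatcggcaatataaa
Compared base by base without gaps, Slc25a4 and Slc25a5 differed at 14 of the 78 bases, 3 of them in the capitals. Slc25a4 and Slc25a31 differed at 33, with 6 in the capitals. Slc25a5-ps has no protein-coding transcript and was not a member, and it was listed at 0 TPM in both hearts.

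Slc25a3 imports the phosphate that ATP synthase joins to ADP (chromosome 10, 91116574 to 91124059, minus strand). It had 966 and 836 TPM in replicates 1 and 2. It stood below Slc25a4 in both hearts, by a log2 ratio of Slc25a3 over Slc25a4 of -0.80 ± 0.09 (SD, n = 2). In mammals the gene is known for a pair of alternative exons, one used mainly in heart and skeletal muscle and one used more widely. The annotation holds such a pair, 1 upstream of the other, and both are entirely coding. They are shown because the transcript shares below turn on them; capitals mark bases that differ, or have no partner, when the exons are aligned (mm10, minus strand, 5′ to 3′).
Upstream exon, chr10:91122207-91122331: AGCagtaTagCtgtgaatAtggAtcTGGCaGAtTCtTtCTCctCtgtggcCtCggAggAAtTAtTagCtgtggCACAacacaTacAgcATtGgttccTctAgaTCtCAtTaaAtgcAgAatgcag
Downstream exon, chr10:91121922-91122043: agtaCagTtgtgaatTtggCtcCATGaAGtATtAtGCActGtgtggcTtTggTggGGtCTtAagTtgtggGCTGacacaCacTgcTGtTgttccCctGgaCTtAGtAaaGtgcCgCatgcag
The exons are 125 and 122 bases long and were identical at 77 of 122 aligned bases, 63.1%.

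Most Slc25a3 RNA was assigned to the upstream exon. Transcript Slc25a3-206, which carries it, had 824 and 707 TPM in replicates 1 and 2. Slc25a3-201, which carries the downstream exon, had 113 and 108 TPM, and Slc25a3-203, which also carries it, had 5.46 and 4.82. Among transcripts with either exon, the upstream one took 87.4% in replicate 1 and 86.2% in replicate 2, a mean of 86.8% ± 0.854 (SD, n = 2). These transcripts made up 97.9% ± 0.402 of the gene's TPM. The remainder lay on Slc25a3-208, Slc25a3-204, Slc25a3-207 and Slc25a3-205, none of which is annotated as coding and each of which held under 2% of the gene.

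By the second quantification the upstream share was lower, at 74.1% and 75.5% in replicates 1 and 2. There Slc25a3-206 held 69.8% ± 1.37 of the gene and Slc25a3-203 held 21.5% ± 1.46, beside 3.39% ± 0.524 for Slc25a3-201 (SD, n = 2). Slc25a3-202, annotated as a target of nonsense-mediated decay and carrying a 224-base version of the upstream exon, was at 0 in the first tables and at 4.22% ± 0.340 in the second. Both programs put the upstream exon first in both hearts. They differed in which downstream-exon transcript was given the reads, and the cause was not tested.

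**Figure D2:**
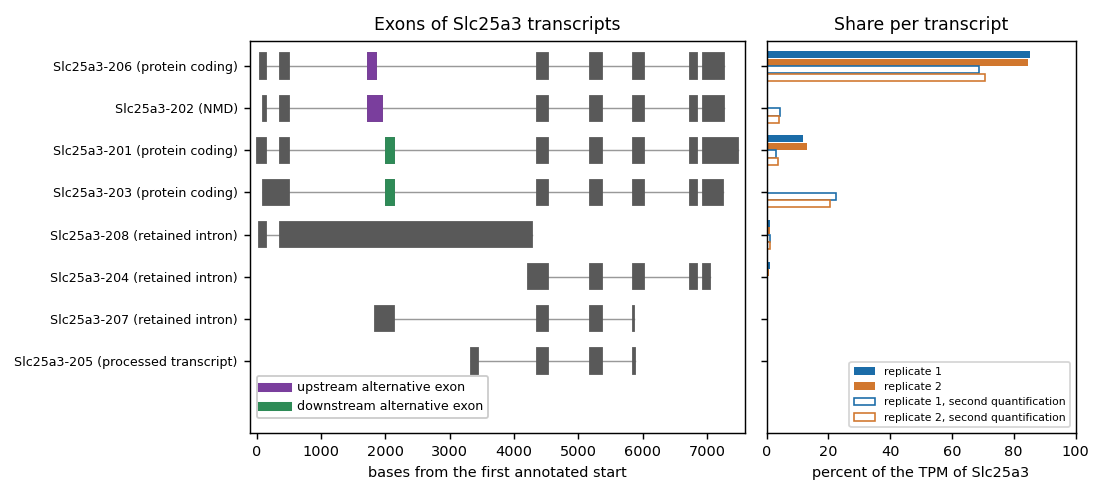
Left, exons of the 8 annotated Slc25a3 transcripts, drawn to scale in bases from the first annotated start, with the upstream alternative exon in purple and the downstream one in green. Right, percent of the gene's TPM on each transcript in each replicate, from the first tables (filled bars) and from the second quantification (open bars); Slc25a3-206 has the longest bar in all 4 measurements, between 68.8% and 85.3%.

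Carriers of di- and tricarboxylates move intermediates of the citric acid cycle, and 3 of 4 were expressed. Slc25a11, which exchanges malate for 2-oxoglutarate and is one of the carriers of the malate-aspartate shuttle (chromosome 11, 70644196 to 70647479), had 147 and 131 TPM in replicates 1 and 2. The dicarboxylate carrier Slc25a10 had 19.4 and 18.3, and the citrate carrier Slc25a1 had 4.62 and 6.02. Slc25a11 was above both in each heart, by log2 ratios of 2.87 ± 0.05 over Slc25a10 and 4.69 ± 0.38 over Slc25a1 (SD, n = 2). Slc25a21, the oxodicarboxylate carrier, had 1 and 3 counts and 0.03 and 0.07 TPM.

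The partner of Slc25a11 in the malate-aspartate shuttle is the aspartate/glutamate carrier, encoded by Slc25a12 and Slc25a13. Slc25a12, the form of excitable tissues (chromosome 2, 71271063 to 71367749), had 84.9 and 73.8 TPM in replicates 1 and 2. Slc25a13, known as citrin and typical of liver, had 32.4 and 27.6. The log2 ratio of Slc25a12 over Slc25a13 was 1.39 and 1.41 in replicates 1 and 2, the closest match between hearts of the 23 partner pairs. All 4 enzymes of the shuttle were expressed, from the cytosolic malate dehydrogenase Mdh1 at 847 and 772 TPM to the cytosolic aspartate aminotransferase Got1 at 212 and 148. The glutamate carrier Slc25a22 had 22.6 and 13.6 TPM, and its relative Slc25a18 had 0.11 and 0.06 from 5 and 3 counts. For Slc25a22 the deposited interval lay above the TPM in both libraries, with lower bounds of 23.2 and 14.4.

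Although the gene level of Slc25a12 was high, little of it was on a transcript annotated as protein-coding. Slc25a12-207, annotated as a target of nonsense-mediated decay, had 57.3 and 50.7 TPM in replicates 1 and 2, which was 68.1% ± 0.906 of the gene (SD, n = 2) and 65.0% ± 6.504 by the second quantification. The coding transcript Slc25a12-206 had 6.12 and 5.68 TPM, 7.45% ± 0.346 of the gene and 12.4% ± 0.869 by the second quantification. In expected counts the gap was narrower, with 3189 and 3350 on Slc25a12-207 and 929 and 1022 on Slc25a12-206, since Slc25a12-206 is 6351 bases long and Slc25a12-207 2392. The transcripts differ at both of the features given here. Slc25a12-207 lacks a coding exon of 116 bases, printed here because its absence is what sets the decay transcript apart within the coding region, and its last exon has 664 bases where that of Slc25a12-206 has 4291.
Slc25a12 exon, chr2:71333605-71333720, minus strand: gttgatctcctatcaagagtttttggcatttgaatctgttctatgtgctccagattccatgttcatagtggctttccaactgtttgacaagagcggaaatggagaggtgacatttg
Which of these features led reads to be assigned to Slc25a12-207 was not tested.

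Uncoupling proteins were led by Ucp2. Ucp2, which passes short organic acids out of mitochondria (chromosome 7, 100493337 to 100502020, plus strand), had 131 and 149 TPM in replicates 1 and 2. By the second quantification it had 253 and 282 TPM, 1.91 times the first on average, the highest such ratio among expressed members, whose median was 1.35, as it was over expressed nuclear protein-coding genes. Ucp3, the form of skeletal muscle, heart and brown fat (chromosome 7, 100472990 to 100486432, plus strand), had 23.0 and 6.94 TPM, beside 8 skeletal muscle markers that summed to 9.61 and 7.14. Most of these sums came from Casq1 alone, with 7.65 and 4.99 TPM in replicates 1 and 2. Ucp2 stood above Ucp3 in both hearts, with log2 ratios of 2.50 and 4.41. The 2 genes are neighbours on the same strand, 6904 bases apart with no annotated gene between them, and their coding sequences were identical at 75.4% of 915 aligned bases.

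Ucp1, the heat-producing form (chromosome 8, 83290352 to 83298452), had no count in replicate 1 (0 TPM) and 396 counts, or 8.94 TPM, in replicate 2. The count of 0 allows up to 3 counts, or 0.0952 CPM (counts scaled to library size), and replicate 2 was at least 116-fold higher against that floor. Of the 8 other brown fat markers, 3 reached 1 TPM in replicate 1 and 5 did in replicate 2, and their summed TPM was 40.8 and 43.7. The adipocyte genes Adipoq and Plin1 had 1 and 0 counts in replicate 1 and 59 and 116 in replicate 2. Cidea, with 26.6 and 27.1 TPM, and Prdm16, with 13.03 and 10.7, were present in both hearts. So was Dio2, with 1.02 and 1.65 TPM from 141 and 272 counts. Elovl3, Cfd and Adrb3 had at most 3 counts in either library. The part of adipose tissue in the Ucp1 difference was not tested.

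The relatives of the uncoupling proteins were low. Slc25a30 had 9.74 and 8.51 TPM in replicates 1 and 2, and Slc25a14 had 2.00 and 1.76. Slc25a27, best known from brain, had 3.17 and 1.05, the lowest value of an expressed member in either heart. Slc25a27 was above Slc25a14 in replicate 1 and below it in replicate 2, so these could not be ordered.

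Carriers of carnitine and basic amino acids were represented mainly by Slc25a20, which exchanges acylcarnitine for carnitine and so brings long-chain fatty acids to beta-oxidation (chromosome 9, 108662088 to 108684641). It had 99.7 and 89.3 TPM in replicates 1 and 2. All 4 carnitine shuttle enzymes were expressed, from the muscle form of the outer-membrane acyltransferase, Cpt1b, at 256 and 259 TPM, to Cpt2 at 60.4 and 58.8 and Cpt1a at 68.6 and 56.6, which changed places between the hearts. The ornithine carrier Slc25a15 had 6.52 and 5.69 TPM. The basic amino acid carrier Slc25a29 had 1.35 and 0.94 TPM, just under the level used here, and Slc25a2 had 12 and 5 counts and 0.39 and 0.14 TPM.

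ATP-Mg carriers exchange ATP-Mg for phosphate and change the size of the matrix nucleotide pool, most of them under the control of calcium. Slc25a23 had 39.0 and 32.9 TPM in replicates 1 and 2, against 8.09 and 7.89 for Slc25a24 and 7.51 and 6.89 for Slc25a25. Slc25a23 was thus above both in each heart, with log2 ratios of 2.15 ± 0.15 and 2.30 ± 0.09 (SD, n = 2). Slc25a41 was listed at 0 in both libraries.

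All 7 carriers of cofactors were expressed. Slc25a51, the mitochondrial NAD carrier (chromosome 4, 45395923 to 45408766), led them with 51.4 TPM in replicate 1 and 52.1 in replicate 2. Slc25a42, a coenzyme A carrier, had 25.9 and 10.9, and Slc25a16 had 10.8 and 11.3, so Slc25a42 was the higher in replicate 1 only. The peroxisomal cofactor carrier Slc25a17 had 16.3 and 13.8 TPM. Lowest were Slc25a32, a carrier of folate or FAD, with 5.89 and 5.92, and Slc25a26, the S-adenosylmethionine carrier, with 5.56 and 4.11.

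Carriers of pyrimidine nucleotides and glutathione were all expressed, 4 of 4. Slc25a39, a glutathione carrier (chromosome 11, 102402985 to 102407946), had 64.8 and 67.4 TPM in replicates 1 and 2, and its paralog Slc25a40 had 7.68 and 4.58. Slc25a36, a pyrimidine nucleotide carrier, had 25.9 and 21.7 TPM, against 4.03 and 4.00 for Slc25a33. Within each pair the same gene was higher in both hearts, with a log2 ratio of 3.45 ± 0.56 for Slc25a39 over Slc25a40 and of -2.53 ± 0.17 for Slc25a33 over Slc25a36 (SD, n = 2).

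Iron reaches the matrix through the mitoferrins, Slc25a37, needed in red cell precursors, and Slc25a28, expressed more widely. Slc25a28 had 13.3 and 9.78 TPM in replicates 1 and 2, and Slc25a37 had 6.57 and 7.89. At gene level Slc25a28 was the higher in both hearts, but its log2 ratio over Slc25a37 varied, with 1.01 in replicate 1 and 0.31 in replicate 2. Coding transcripts held 40.5% ± 6.66 of Slc25a28 and 55.2% ± 7.41 of Slc25a37 (SD, n = 2). The coding transcript Slc25a28-201 had 4.78 and 4.30 TPM in replicates 1 and 2, against 3.28 and 4.76 for Slc25a37-201, so that order did not hold in replicate 2. By the second quantification it did, with 9.03 and 7.72 against 3.50 and 5.73. Slc25a38, which supplies glycine for heme synthesis, had 5.04 and 3.71 TPM. All 6 listed users of mitochondrial iron were expressed. Among them the general heme synthesis enzyme Alas1 had 221 and 178 TPM, ferrochelatase Fech had 45.9 and 49.9, and the erythroid enzyme Alas2 had 7.44 and 25.7.

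The hearts differed in red cell RNA by more than these carriers did. Of 11 erythroid genes found, 7 reached 1 TPM in each heart, with sums of 1512 TPM in replicate 1 and 5355 in replicate 2, and Gata1 was at 0 counts in replicate 1. Replicate 2 over replicate 1, the log2 ratio of scaled counts was 1.90 for Alas2, 0.19 for Slc25a37 and -0.42 for Slc25a38. What red cell precursors added to the level of either carrier was not tested.

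**Figure D3:**
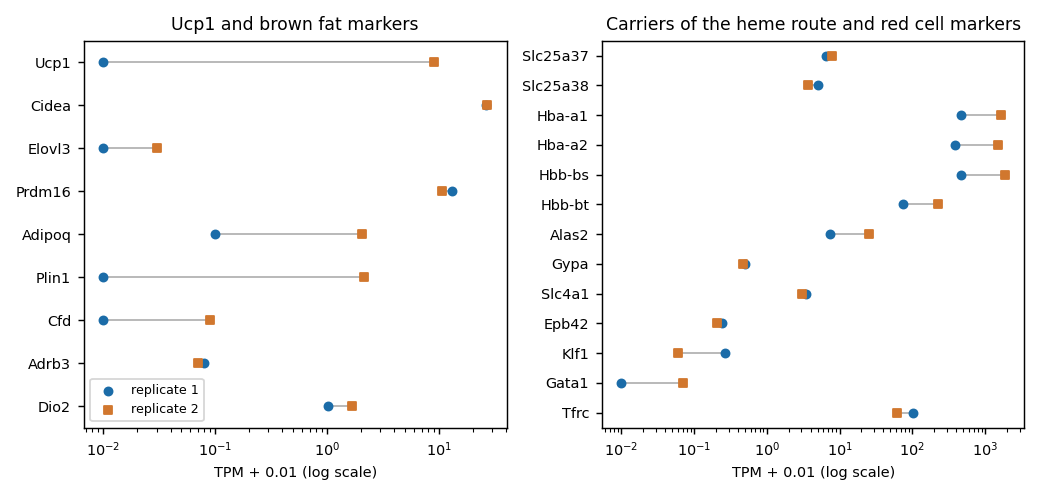
TPM (plus 0.01, log axis) of Ucp1 and the other brown fat markers on the left, and of Slc25a37, Slc25a38 and red cell markers on the right, in replicate 1 (circles) and replicate 2 (squares). Ucp1, Adipoq, Plin1 and, by less, Dio2 are higher in replicate 2 while Cidea and Prdm16 lie close together. The globin genes and Alas2 are higher in replicate 2 while Slc25a37 (6.57 and 7.89 TPM) and Slc25a38 (5.04 and 3.71 TPM) are near each other.

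Of the remaining members, Slc25a44, a branched-chain amino acid carrier, had 6.64 and 5.85 TPM in replicates 1 and 2, and Slc25a48, linked to choline, had 0 and 1 counts. Slc25a46, which acts in the outer membrane in mitochondrial dynamics, had 19.9 and 19.4 TPM. Slc25a34, with no settled substrate, had 20.2 and 13.7, and its relative Slc25a35 had 0.85 and 0.38. Slc25a47, best known from liver, had 3.44 and 3.15 TPM, Slc25a53 had 1.98 and 3.33, and Slc25a45 had 1.87 and 2.60. Slc25a43 had 11 and 4 counts, and Slc25a54 was listed at 0 in both. Slc25a47 is read beside the hepatocyte markers, whose 8 genes summed to 8.05 and 7.36 TPM. With either heart alone 40 members passed 1 TPM, since Slc25a29 did so in replicate 1 and Ucp1 in replicate 2.

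Partner genes with related substrates were compared within each heart in 23 pairs. The first-named partner was higher in both hearts in 18, the second-named in 2, and 3 were divided. The 3 divided pairs were Ucp3 with Ucp1, Slc25a14 with Slc25a27, and Slc25a42 with Slc25a16. In all 23, the second quantification gave a mean ratio in the same direction.

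**Figure D4:**
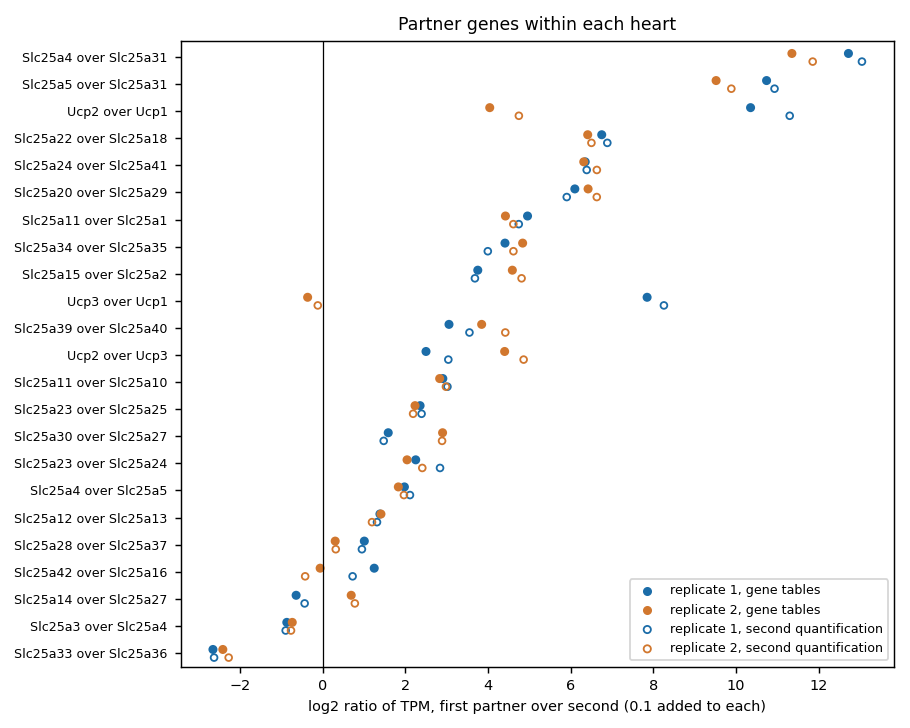
Log2 ratio of TPM of the first partner over the second, with 0.1 added to each, for 23 pairs in replicate 1 (blue) and replicate 2 (orange), from the gene tables (filled) and from the second quantification (open). Points right of 0 have the first partner higher; Slc25a12 over Slc25a13 has its filled points almost on top of each other (1.39 and 1.41), and Ucp3 over Ucp1 has them on both sides of 0.

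Neighbouring members differed in level. In 5 pairs, holding 10 members, no other protein-coding gene lay between the 2 genes. On chromosome 7, Ucp3 lies beside Ucp2, and their values are given above. Slc25a43, with 0.44 and 0.14 TPM in replicates 1 and 2, lies 18448 bases from Slc25a5, with 446 and 390. Slc25a41 at 0 lies 2056 bases from Slc25a23 with 39.0 and 32.9, and Slc25a54 at 0 lies 6461 bases from Slc25a24 with 8.09 and 7.89. Slc25a29 and Slc25a47, on opposite strands and 162 bases apart, were both low. In all 5 pairs the same gene was the higher in both hearts.

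Most members also carry a sequence feature of the family. The rule went by symbol, but the family is defined by such likeness. The counts below are therefore not independent of membership and do not describe the hearts. The family's signature, a proline followed after 1 residue by an acidic residue and after 2 more by a basic one, was counted in the translated coding sequences. At least 2 copies were found in 42 of 50 members, 84.0%, and in 7.32% of 21584 genes with a coding sequence. Among other genes whose coding length fell in the members' range, from 795 to 2031 bases, the share was 3.90%. Of the members, 30 had 3 copies or more, and Slc25a46, Slc25a51 and Slc25a53 had 0. A copy is a match of letters and not a functional site.

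Transcript shares varied widely among the 39 expressed members. The same transcript led in both hearts in 34, and it also led in both by the second quantification in 28. The leading transcript held over 90% of the gene in 8 members, as in Slc25a5 with 99.2% ± 0.373 on Slc25a5-201 and Slc25a20 with 98.6% ± 0.771 on Slc25a20-201 (SD, n = 2). It held under 50% in 8, as in Slc25a51 with 38.6% ± 3.14 on Slc25a51-201. Slc25a4-201 held 88.4% ± 1.98 of Slc25a4, the rest being a retained-intron transcript that held 11.6% in the first tables and 1.30% in the second. Transcripts annotated as protein-coding took a median of 86.3% of a member's TPM. They took under 50% by both quantifications in 3 members, Slc25a12, Slc25a47 and Slc25a53. Slc25a53 overlaps Zcchc18 on the opposite strand, and its coding transcripts held 5.17% ± 0.501 of its TPM.

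The hearts were close for most members, by about as much as for other genes. Of 41 members with enough counts to pass the filter, 15 had a higher and 26 a lower scaled count in replicate 2 (19 and 22 when scaled to the spike-ins), and 30 were within 1.25-fold. The same shares over all genes were not taken, so these counts describe the members only, and the medians give the comparison. The median log2 ratio of replicate 2 over replicate 1 was -0.06 for members and 0.02 for filtered nuclear protein-coding genes. The median size of the ratio, regardless of sign, was 0.19 for members and 0.17 for those genes. In TPM, the median coefficient of variation over the pair of hearts was 10.2% for the 39 expressed members and 9.18% for expressed nuclear protein-coding genes. It was lowest in Slc25a32 (0.359%), Slc25a33 (0.528%) and Slc25a51 (0.943%), and highest in Ucp3 (75.9%), Slc25a27 (71.0%) and Slc25a42 (58.0%). Ranks held between the quantifications, with a Spearman rho of 0.989 across the 39 genes, which share libraries and are not independent replicates. The ratio of the second level to the first lay between 1.05 in Slc25a51 and 1.91 in Ucp2, with Slc25a38 next to Ucp2 at 1.90.

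Past 2-fold were 4 of the 41 members, 9.76%, beside 3.06% of all filtered genes and 1.56% of filtered nuclear protein-coding genes. All 4 were lower in replicate 2, where the share of nuclear protein-coding genes lower by that much was 0.85% and the share higher by that much was 0.71%. Ucp3 had 1273 counts in replicate 1 and 463 in replicate 2, a log2 ratio of -1.57. Slc25a27 had 159 and 65 counts, with -1.38. Slc25a42 had 1658 and 811 counts, with -1.15, and Slc25a35 had 51 and 25, with -1.08. Ucp1 went the other way, with 0 counts in replicate 1 and 396 in replicate 2, but did not pass the filter. It is therefore not among the 41. Of 37 filtered members with a mean of at least 100 counts, 3 were past 2-fold, beside 0.742% of filtered nuclear protein-coding genes at that depth. With 1 library against 1 there is no test, and these ratios describe the pair of libraries. Over the cardiomyocyte markers the same ratio lay between -1.15 for Nppa and 0.32 for Actc1, and over the fibroblast markers between -0.09 and 0.64. Whether the mix of cells moved the 4 members was not tested.

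**Figure D5:**
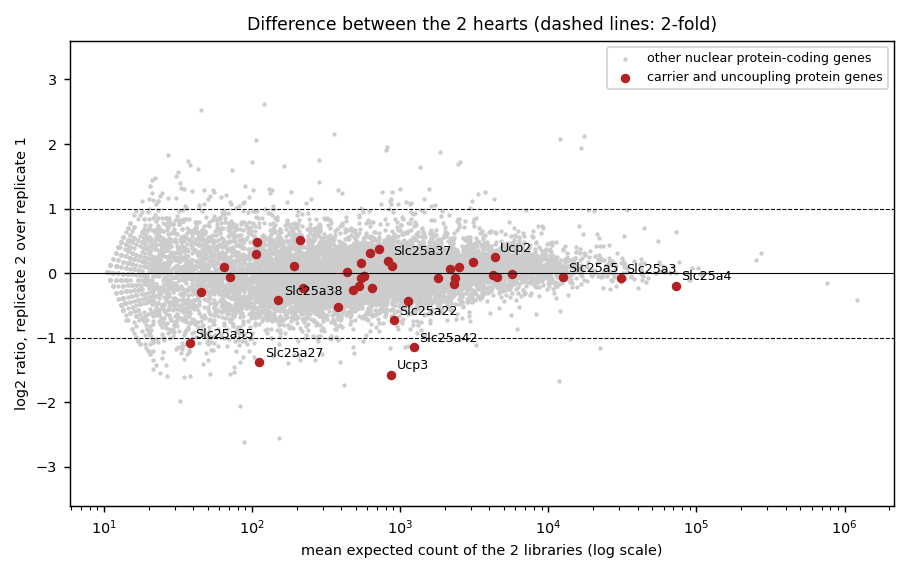
Log2 ratio of replicate 2 over replicate 1 from scaled counts, against the mean expected count on a log axis, for the 41 filtered members (red) and other filtered nuclear protein-coding genes (grey; 1 lies outside the plotted range). Dashed lines mark 2-fold. Ucp3, Slc25a27, Slc25a42 and Slc25a35 lie under the lower line and no plotted member lies over the upper one. Ucp1, higher in replicate 2, did not pass the filter and is not plotted.

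The other genes that carriers work with were all expressed, 29 of 29 in the lists used. Outer membrane channels, through which substrates reach the carriers, were led by Vdac1 with 372 TPM in replicate 1 and 341 in replicate 2. The pyruvate carrier, which is not of this family, had Mpc1 at 148 and 108 and Mpc2 at 168 and 148. The carrier import genes, which include Tomm genes of the outer membrane and Timm genes, summed to 306 and 292 TPM over 8 genes. They ran from Tomm40 with 69.2 and 64.2 to Timm29 with 15.5 and 15.3.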

How the data were processed

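Total RNA of 2 hearts was measured in 2 libraries of 1 group. Per the file headers, the authors gave expected counts and TPM per gene and per transcript under RSEM column names, with interval bounds on TPM whose level is not stated. The second quantification has kallisto column names, and its deposited estimated counts and TPM are per transcript. Notes deposited beside the files give mm10 and GENCODE M21; neither an aligner nor a tool version is given in the sources used here. Spike-ins were among the rows over which the authors scaled TPM.

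Depth was 31698880 and 35939759 expected counts, and 96 spike-ins and 26249 rows that name no gene (6.31e-06% and 1.11e-05% of counts) stayed out of library sizes. A floor of 3 counts covers counting error only. Counts were rounded, filtered with filterByExpr (16271 genes left) and scaled by TMM with edgeR 4.0.16 (R 4.3.3; prior count 2), and the common biological coefficient of variation was 15.2%. DESeq2 1.42.0 size factors were an alternative. This step was tested on simulated data. For ratios between genes, 0.1 was added to each TPM. Python 3.11.15 ran the remaining steps with Biopython 1.88, pandas 2.3.3, SciPy 1.17.1, NumPy 2.4.6 and matplotlib 3.10.9. Sequences and coordinates come from GENCODE M21 transcripts and annotation, which gave the coding sequence of all 50 members.

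No test across samples was run, since 2 libraries of 1 group hold no contrast, and flipping the sign of either exactly could give no p under 0.5. All members were named but 1, which is not reported here, as were the highest and lowest of some pathway lists, Alas1, Alas2, Fech, Vdac1, Mpc1, Mpc2 and Cpt1b, each Slc25a3 transcript, and the leading transcripts the text describes; other marker genes named, such as Adipoq, Plin1 and Nppa, were chosen after their values were seen. Members and lists were chosen with earlier results of these data known. Of 12 erythroid markers 1 was not found by symbol. The libraries are taken as strand-specific from the labels. Of the members, 19 overlap a gene on the opposite strand, such as Ucp2 with Dnajb13 and Slc25a11 with Rnf167. A gene on the same strand is overlapped by 8, such as Slc25a3 with Gm24119. Reads of same-strand pairs could be misassigned, and those of opposite-strand pairs only where the strand was not kept.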

Additional observations from a re-analysis of the deposited data

How the results depend on the processing

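Between the hearts, the log2 ratio took the other sign under some alternative in 6 members, Slc25a11, Slc25a32, Slc25a17, Slc25a36, Slc25a20 and Slc25a44, whose reported ratios were at most 0.07 in size, and none of the 4 past 2-fold did so. Of the pairs, only the 3 divided ones changed sign: without replicate 1, Ucp3 over Ucp1 was -0.36 and Slc25a42 over Slc25a16 -0.06, and Slc25a14 over Slc25a27 was -0.02 with a pseudocount of 1 and -0.64 without replicate 2. No paired analysis was possible because both libraries belong to 1 group. The family's share of 0.861% became 0.384% when all mouse genes formed the denominator and 0.675% in expected counts, and lay between 0.807% and 0.914% in single hearts. With the second quantification the share of the 3 leading genes was 74.4% (75.0% to 76.8% in single hearts by the first tables) and the upstream exon share of Slc25a3 was 74.8% (86.2% to 87.4%). Without a filter on low counts, 8 of 48 members were past 2-fold, Ucp1, Slc25a31, Slc25a43 and Slc25a2 being added, while the share of all genes past 2-fold was 9.83% in place of 3.06%. The number expressed was 40 by the second quantification, with posterior mean TPM, at a TPM of 0.5 and with either heart left out (40 to 40), and 29 at a TPM of 5. The background share was not taken under these settings. Pairs with the first partner higher numbered 19 to 20 in single hearts. Levels of 38 members differed between quantifications by more than 1 SD of the pair of hearts. Scaled to the spike-ins, 19 members were higher and 22 lower in replicate 2. With 2 libraries an SD is imprecise, and members under about 100 counts are limited by depth.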
